A study of Danio rerio with 12 samples.

Results

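Interleukins are secreted cytokines that carry signals between cells, and interleukin receptors are the membrane proteins, usually pairs of chains, that read them. Most interleukin receptors signal through JAK kinases and STAT transcription factors, whereas receptors of the IL-1 and IL-17 families signal through adaptor proteins towards NF-kB. In mammals many interleukin ligands are made in quantity only by activated immune cells, while shared receptor chains such as the IL-6 signal transducer and the IL-10 receptor beta chain are made by many tissues. The 49 genes described here are all genes of the joined tables, 32349 in total, whose symbol starts with il and a digit, without il1b. Reading the symbols by hand gave 21 ligands and 28 receptor chains, and the symbol il4r.1 was carried by 2 gene identifiers.

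RNA-seq counts were available for 12 libraries of zebrafish (Danio rerio), each pooling 25 whole larvae aged 3 days post fertilization. The 4 groups of 3 libraries were control larvae (A81, A82 and A83), larvae with the transgene Tg(ifih1_mut), here ifih1mut (A75, A76 and A77), control larvae given poly I:C (A78, A79 and A80), and ifih1mut larvae given poly I:C (A72, A73 and A74). Values below are listed in these orders. Poly I:C is a synthetic double-stranded RNA, and ifih1 encodes MDA5, a cytoplasmic sensor of double-stranded RNA. The sources used here do not give the strain, the promoter of the transgene, the exact change that it carries, the number of founder lines, the clutches behind the pools, or how much poly I:C was given, by which route and for how long. The p-values therefore measure only the spread between these pools.

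Library totals ran from 31876869 to 100839015 counts. The ifih1 gene was at 1.92 to 2.73 CPM (the count scaled to the library's TMM-adjusted total) in the 6 libraries without the transgene and at 11.1 to 33.3 CPM in the 6 with it, and counts of the transgene and the native gene are not separated. Of 8 markers of larval tissues, 7 had mean levels from 44.7 CPM (fabp10a, liver) to 2245 CPM (krt4, skin), while mylpfa, a fast muscle gene, was at 0.197 CPM. Of 6 lymphocyte markers, 5 averaged 0.343 CPM (zap70) to 4.12 CPM (rag1), and cd8a, which marks cytotoxic T cells, averaged 0.00683 CPM. The libraries also fell into 3 sets by the position of their number within the group. Set 1 holds A81, A75, A78 and A72, set 2 holds A82, A76, A79 and A73, and set 3 holds A83, A77, A80 and A74. Libraries of 1 set deviated together from their group means.

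Most interleukin ligands were scarce in these larvae, and their receptor chains were higher as a group but uneven. Per kb of gene length the ligands ran from 0.0126 to 3.88 CPM and the receptor chains from 0.00519 to 15.4 CPM. The median level over the ligands was 0.114 CPM per kb of gene length, averaged over the 12 libraries, against 1.13 CPM per kb over the receptor chains. Of the 21 ligands, 4 reached a mean of 1 CPM and 1 reached 10 CPM. Of the 28 receptor chains, 18 reached 1 CPM and 6 reached 10 CPM. The level of all ligands summed was 31.9 to 44.5 CPM per library, and that of all receptor chains 221.4 to 296 CPM. These counts and sums are not corrected for gene length. Most of the ligand sum came from il16, with a mean of 23.4 CPM and a length of 8504 bases. The gene il16 (13114 counts in all) overlaps 4 genes on the opposite strand, the largest with 872 counts. Reads of these overlaps cannot be told apart here. In bulk samples, fewer cells of a type and less RNA per cell cannot be told apart.

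**Figure D1:**
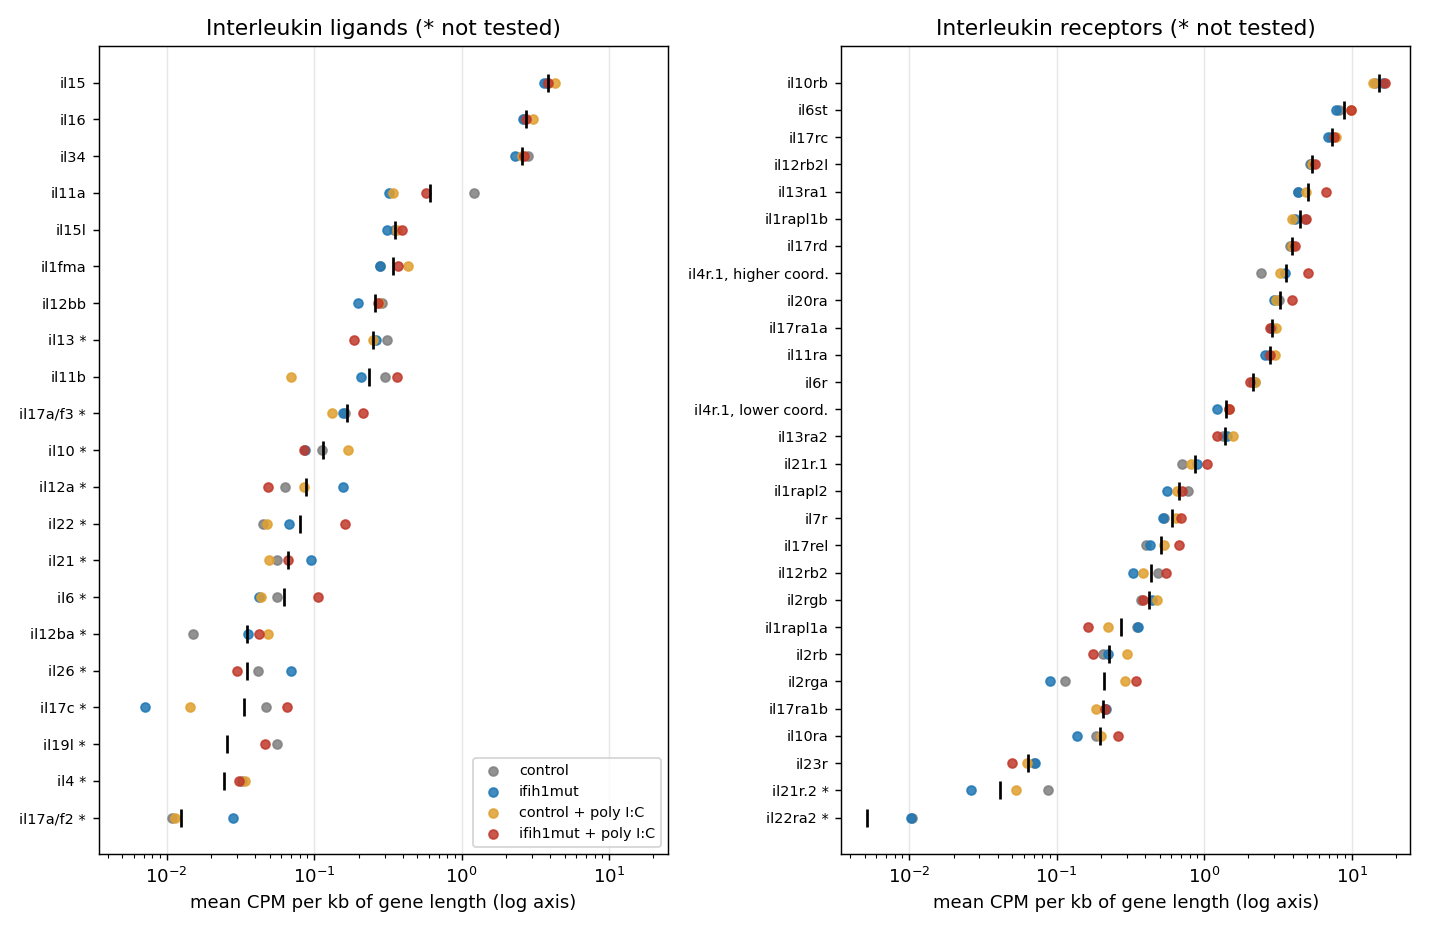
Mean CPM per kb of gene length (log axis) of the 21 ligands (left) and 28 receptor chains (right); coloured points are the means of 3 libraries in each group, the black tick is the mean of 12, an asterisk marks members that did not pass the low-count filter and were not tested, and a group mean of 0 is not drawn. The ligands reach 3.88 CPM per kb (il15) and the receptor chains 15.4 CPM per kb (il10rb).

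The ligands with the highest levels per length were il15, il16 and il34. In mammals IL-15 maintains natural killer and memory T cells, IL-16 is cut from a larger precursor protein, and IL-34 is a ligand of the macrophage receptor CSF1R. Their mean levels were 3.88, 2.75 and 2.58 CPM per kb. The il15 level was 5.99, 5.58 and 4.35 CPM in control, 4.95, 5.48 and 4.69 CPM in ifih1mut, 6.03, 6 and 5.87 CPM in control with poly I:C, and 4.89, 6.31 and 5.01 CPM in ifih1mut with poly I:C. The il15 pools overlapped in each of the 4 comparisons made below. The il16 level was 21.7, 21.5 and 23.9 CPM in control, 19.8, 20.6 and 26 CPM in ifih1mut, 25.1, 21.2 and 31.2 CPM in control with poly I:C, and 20.5, 22.5 and 27 CPM in ifih1mut with poly I:C. In each group the library of set 3 was the highest. The il34 level was 7.13, 3.04 and 4.66 CPM, then 5.26, 3.47 and 3.36 CPM, then 6, 3.12 and 4.43 CPM, and 3.9, 3.99 and 6 CPM in the same order of groups, with the groups overlapping. In the 4 comparisons of groups the 95% intervals of il15 lay between -0.49 and 0.51 on the log2 scale, those of il16 between -0.50 and 0.56, and those of il34 between -1.05 and 0.95.

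**Figure D2:**
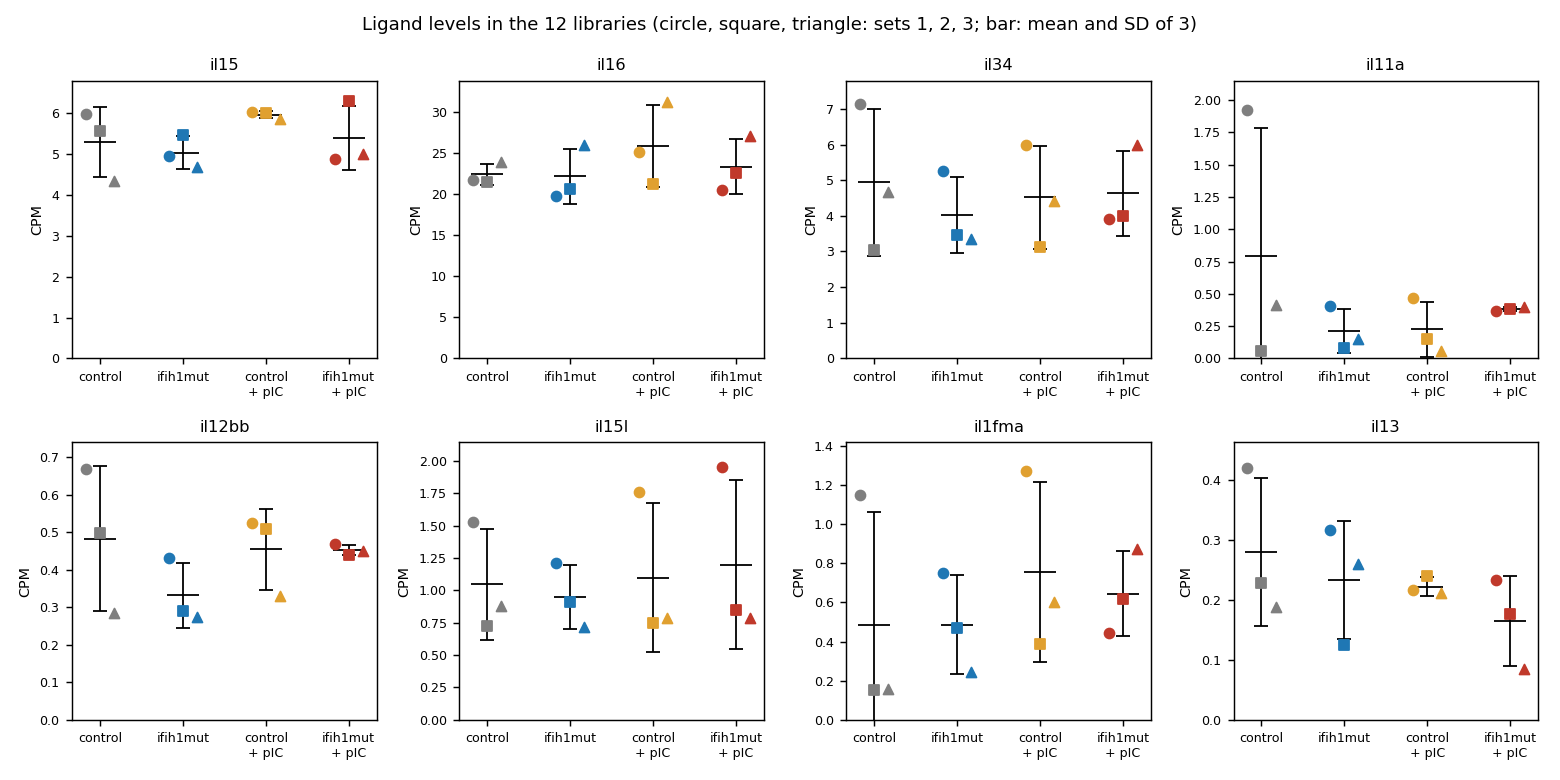
CPM of 8 ligands in each library (circle, square and triangle are sets 1, 2 and 3), with the mean and SD of 3 libraries as bars; pIC is poly I:C, and lower bars that would pass below 0 end at the axis. il16 lies between 19.8 and 31.2 CPM, il11a reaches 1.92 CPM in 1 control library, and il13 stays at or under 0.42 CPM.

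The other tested ligands were low and varied more between pools than between groups. IL-11, which signals through the IL-6 signal transducer, has zebrafish genes il11a and il11b. The il11a level was 1.92, 0.0573 and 0.41 CPM in control, 0.403, 0.0826 and 0.153 CPM in ifih1mut, 0.464, 0.15 and 0.0602 CPM in control with poly I:C, and 0.364, 0.382 and 0.394 CPM in ifih1mut with poly I:C. The control library A81 stood above all the others, and the control group overlapped each other group. For il11b the counts were 0 in A78 and A79, and the highest level was 0.439 CPM, again in A81. The shared p40 subunit of IL-12 and IL-23 is encoded in zebrafish by genes that include il12bb. The il12bb level was 0.669, 0.497 and 0.284 CPM in control, 0.431, 0.289 and 0.275 CPM in ifih1mut, 0.525, 0.51 and 0.331 CPM in control with poly I:C, and 0.468, 0.44 and 0.451 CPM in ifih1mut with poly I:C. All 3 ifih1mut pools with poly I:C lay above the 3 without it, by as little as the step from 0.431 to 0.44 CPM. The fish genes il15l and il1fma, the latter a member of the IL-1 family, had group means of 0.945 to 1.2 CPM and 0.486 to 0.753 CPM.

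The remaining 13 ligands did not reach the low-count filter's minimum of 0.281 CPM in 3 libraries and were not tested. They include genes named for central mammalian cytokines: il6 (acute phase and fever), il10 (restraint of inflammation), il12a (the p35 subunit of IL-12), il22 and il26 (signals to epithelia), il4, il13 and il21 (made by helper T cells in mammals), il17a/f2, il17a/f3 and il17c (defence at epithelial surfaces), il12ba and il19l. Their totals, with those of 2 receptor genes also not tested (il21r.2 and il22ra2), ran from 3 to 139 counts over all 12 libraries, and none passed 0.42 CPM in any library. The filter looks at single libraries and not at totals. The gene il13, with 139 counts, was left out, while il11b, with 89 counts, passed through 3 libraries. For il6, 27 counts were recorded in all, and 3 libraries had 0. Its level was 0.086, 0 and 0.0315 CPM in control, 0, 0.0275 and 0.0612 CPM in ifih1mut, 0.0618, 0 and 0.0301 CPM in control with poly I:C, and 0.0781, 0.117 and 0.0282 CPM in ifih1mut with poly I:C. A count of 0 allows up to 3 counts, which is 0.0287 to 0.0945 CPM depending on the library, so most of these values lie near that limit and the groups cannot be ordered. These limits cover counting error only. In the deposited coordinates il17c overlaps zc3h18 on the same strand, which held 8161 counts in all. The gene il17a/f3 overlaps stmn4 on the opposite strand, which held 33684 counts. Reads of these overlaps cannot be told apart here.

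Totals for the others of interest were 44 counts for il10, 42 for il12a, 139 for il13, 29 for il22 and 15 for il26. The il10 level was 0.153, 0.0382 and 0.0315 CPM in control, 0.115, 0.0413 and 0.0153 CPM in ifih1mut, 0.0927, 0 and 0.241 CPM in control with poly I:C, and 0.026, 0.0294 and 0.113 CPM in ifih1mut with poly I:C. The il12a level was 0.0478, 0.0382 and 0.0945 CPM in control, 0.345, 0.0826 and 0.0153 CPM in ifih1mut, 0.0309, 0.06 and 0.151 CPM in control with poly I:C, and 0.052, 0.0587 and 0.0282 CPM in ifih1mut with poly I:C. Both genes had overlapping groups. The il13 level was 0.42, 0.229 and 0.189 CPM in control, 0.316, 0.124 and 0.26 CPM in ifih1mut, 0.216, 0.24 and 0.211 CPM in control with poly I:C, and 0.234, 0.176 and 0.0845 CPM in ifih1mut with poly I:C. The gene il13 overlaps CT998556.1 (462 counts in all) on the same strand, and reads of the overlap cannot be told apart. The il22 level was 0.0478, 0.0382 and 0 CPM in control, 0.0288, 0.0413 and 0.0612 CPM in ifih1mut, 0.0618, 0 and 0.0301 CPM in control with poly I:C, and 0.0781, 0.235 and 0 CPM in ifih1mut with poly I:C. The il26 level was 0.0478, 0 and 0.0315 CPM in control, 0.0575, 0 and 0.0764 CPM in ifih1mut, 0, 0 and 0 CPM in control with poly I:C, and 0, 0.0294 and 0.0282 CPM in ifih1mut with poly I:C. The pools of il13, il22 and il26 overlapped in each comparison, and il26 had no count in control with poly I:C. Summed over the 13 ligands, the level was 0.893 ± 0.368 CPM in control, 0.948 ± 0.494 CPM in ifih1mut, 0.808 ± 0.266 CPM in control with poly I:C and 0.962 ± 0.225 CPM in ifih1mut with poly I:C (SD, n = 3 each).

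The receptor chains with the highest levels per length were il10rb, il6st and il17rc, at 15.4, 8.94 and 7.41 CPM per kb, followed by il12rb2l at 5.41 and il13ra1 at 5.09 CPM per kb. In mammals IL10RB is shared by the receptors of IL-10, IL-22, IL-26 and lambda interferons, IL6ST (gp130) by those of IL-6 and IL-11, and IL17RC pairs with IL17RA. The il10rb level was 22.3, 22.5 and 28.1 CPM in control, 26.3, 26.4 and 29.9 CPM in ifih1mut, 20.9, 24.1 and 26.2 CPM in control with poly I:C, and 25.9, 24.6 and 34.4 CPM in ifih1mut with poly I:C. Its pools overlapped in each of the 4 comparisons. Within sets 1, 2 and 3, ifih1mut minus control was 0.23, 0.22 and 0.09 without poly I:C on the log2(CPM + 0.5) scale. With poly I:C the il10rb differences were 0.30, 0.03 and 0.39. Without a block for the library sets, the il10rb log2 fold change with poly I:C was 0.25 (SE 0.15, unadjusted p = 0.114, edgeR). With that block it was also 0.25 (SE 0.09, unadjusted p = 0.0175, adjusted p = 0.539, edgeR). The il6st level was 77.4, 65 and 65.4 CPM in control, 64.8, 62.6 and 69.8 CPM in ifih1mut, 103.1, 59.7 and 85.9 CPM in control with poly I:C, and 85.6, 85.8 and 76.3 CPM in ifih1mut with poly I:C. The ifih1mut pools with poly I:C lay above those without it, and the control pools with poly I:C spanned both. The il17rc level was 44.6, 36.9 and 35.7 CPM in control, 34.5, 38.2 and 38.3 CPM in ifih1mut, 48.7, 35.1 and 42.9 CPM in control with poly I:C, and 40.8, 40.3 and 40.1 CPM in ifih1mut with poly I:C. The gene il17rc overlaps creld1a on the same strand in the deposited coordinates, and reads of the overlap cannot be told apart.

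The other receptor chains differed widely in level within each family. In the IL-10 family, il20ra was at 8.53 to 11.3 CPM (group means) beside il10rb, and il10ra, the chain that gives IL-10 its specificity in mammals, at 0.521 to 0.983 CPM. In the IL-6 family, the ligand-binding chains il6r and il11ra had group means of 8.24 to 8.9 and 7.43 to 8.8 CPM. In the IL-17 family, il17ra1a was at 8.55 to 9.46 CPM, il17ra1b at 0.495 to 0.581 CPM, il17rel at 0.656 to 1.1 CPM, and il17rd, known in zebrafish as sef and as an inhibitor of FGF signalling, at 24.1 to 26.4 CPM. The IL-1 receptor accessory-like genes il1rapl1a, il1rapl1b and il1rapl2, whose mammalian counterparts are synaptic adhesion proteins, were at 0.671 to 1.45, 5.51 to 6.86 and 1.37 to 1.9 CPM. The opposite-strand gene gnb4b overlaps il1rapl1b, and their reads cannot be told apart here since the sources used do not name a strand setting. The same holds for il1rapl1a (636 counts in all) and the opposite-strand gene cmss1 (1493 counts). In the IL-12 family, il12rb2l was at 11.9 to 12.9 CPM, il12rb2 at 0.79 to 1.31 CPM and il23r at 0.202 to 0.288 CPM.

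The common gamma chain genes and the receptor chains il2rb and il7r, which serve lymphocytes in mammals, were at low levels. The common gamma chain genes il2rga and il2rgb had group means of 0.102 to 0.395 and 0.692 to 0.892 CPM, il2rb (shared by IL-2 and IL-15) 0.777 to 1.32 CPM, and il7r, needed for T cell development, 0.853 to 1.13 CPM. The chains for IL-4 and IL-13 were higher. The group means of il13ra1 were 9.18 to 14.3 CPM, and those of il13ra2, a decoy receptor in mammals, 2.62 to 3.38 CPM. The 2 genes named il4r.1 are neighbours on chromosome 3, at 44002300 to 44012804 (ENSDARG00000116052, here the lower il4r.1) and 44048907 to 44060037 (ENSDARG00000102583, here the upper il4r.1) in the deposited coordinates, for which the sources used here name no build. They lie 36.1 kb apart with 0 listed genes between them, so reads may be shared between them. Their group means were 2.9 to 3.48 CPM (lower) and 6.12 to 12.8 CPM (upper). The gene il21r.1, on the same chromosome, was at 1.69 to 2.52 CPM.

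**Figure D3:**
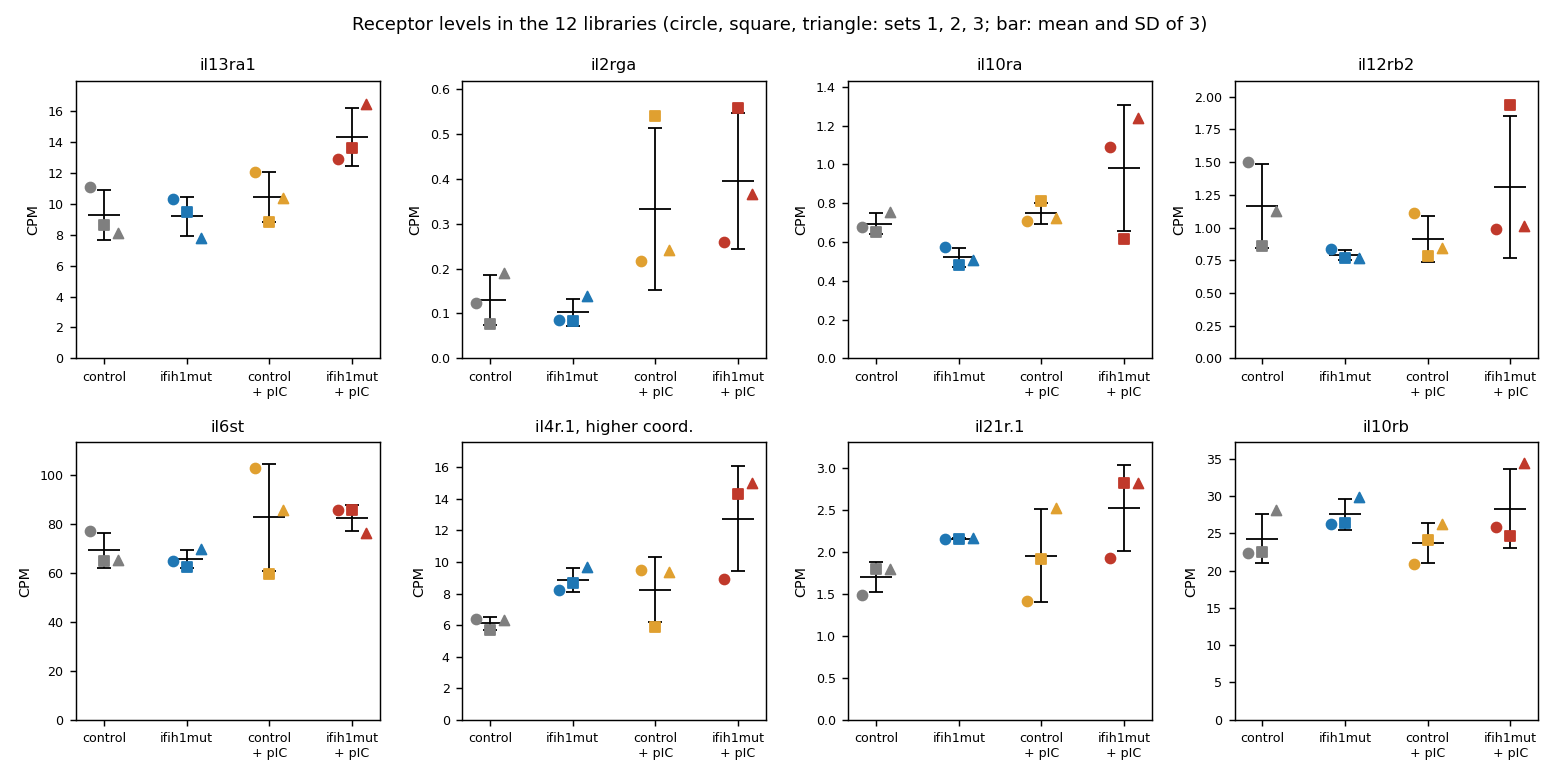
CPM of 8 receptor chains in each library (circle, square and triangle are sets 1, 2 and 3), with the mean and SD of 3 libraries as bars; pIC is poly I:C. The il13ra1 pools of ifih1mut with poly I:C lie at 12.9 to 16.5 CPM, above all other pools, and the upper il4r.1 pools of ifih1mut lie at 8.23 to 9.71 CPM, above the control pools at 5.66 to 6.4 CPM.

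Of the 49 genes, 34 passed the low-count filter and entered the test across all 26508 genes, 8 ligands and 26 receptor chains. Of the 34, 27 reached the filter's minimum of 0.281 CPM in all 12 libraries and 7 did so in 3 to 11 libraries. The test was edgeR's quasi-likelihood F-test, and a gene was called at a Benjamini-Hochberg adjusted p under 0.05.

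The first comparison was of ifih1mut with control larvae, neither given poly I:C. The upper il4r.1, the gene of the alpha chain of the IL-4 receptor, came closest to a difference. Its level was 6.4, 5.66 and 6.3 CPM in control and 8.23, 8.66 and 9.71 CPM in ifih1mut, with no overlap. The log2 fold change was 0.54 (SE 0.22, 95% interval 0.05 to 1.02), with an unadjusted p of 0.0322 and an adjusted p of 1 in edgeR. The summed level of both il4r.1 genes was 10.9, 8.72 and 9.14 CPM in control and 12.3, 11.6 and 11.4 CPM in ifih1mut. The gene il21r.1, named after its values were seen, was at 1.49, 1.8 and 1.8 CPM in control and 2.16, 2.15 and 2.17 CPM in ifih1mut (log2 fold change 0.35, SE 0.24). The ligand il11a had a log2 fold change of -2.03 (SE 1.01, edgeR adjusted p = 1), and without control library A81 it was -0.13. For il12rb2, a signalling chain of the IL-12 receptor, the level was 1.5, 0.86 and 1.13 CPM in control and 0.834, 0.771 and 0.764 CPM in ifih1mut, with a log2 fold change of -0.57 (SE 0.32, edgeR adjusted p = 1) that was -0.33 without library A81.

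No interleukin gene passed the test between the unstimulated genotypes. The edgeR count was 0 of 34 in each direction, where 0.00377% of all genes passed, and it was also 0 with the replicate block for the library sets (0.00377% of all genes) and 0 in DESeq2 (0.00754%). At an unadjusted p under 0.05 in edgeR without the block the count was 1, which is 2.94% of the 34 against 0.509% of all genes. The share of all genes lay far below the 0.05 that the threshold allows by chance, so p-values of this fit ran large. With the block 1 member was higher (upper il4r.1) and 1 lower (il11a), each 2.94%. The share of all genes was not counted with the block. The pools did not overlap for 2 higher genes (upper il4r.1 and il21r.1) and 2 lower genes (il10ra and il12rb2), each 5.88% of the 34, against 1.82% and 1.64% of all genes. The median log2 fold change was -0.24 over the 8 ligands, all of them negative, and -0.01 over the 26 receptor chains, against 0.00 over all genes. Among all genes tested, 12958 of 26508 were negative. For il11a, il11b, il12bb, il15, il15l, il1fma and il34, A81 was the highest control library, so the ligand signs lean on 1 library. The log2 fold change of il16 was -0.01 (SE 0.16, edgeR). With the replicate block that of il1fma was 0.16 (SE 0.61). For 18 of the 34 the 95% interval lay within 2-fold either way, which is 52.9% against 79.3% of all genes.

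The second comparison was of poly I:C with no poly I:C in control larvae. Here il2rga, a common gamma chain gene, was the 1 member with pools that did not overlap. Its level was 0.124, 0.0764 and 0.189 CPM without and 0.216, 0.54 and 0.241 CPM with poly I:C. The log2 fold change was 1.39 (SE 0.52, 95% interval 0.25 to 2.53), with an unadjusted p of 0.0216 and an adjusted p of 1 in edgeR. It was 0.85 without library A79, which held the highest value. The il2rga counts were 3 to 19 per library, and the gene passed the low-count filter only through 1 library of control with poly I:C and 2 of ifih1mut with poly I:C. It could therefore enter the test only with higher values after poly I:C, and its fold is given only as a description. The upper il4r.1 was at 9.52, 5.88 and 9.34 CPM with poly I:C, overlapping the controls (log2 fold change 0.43, SE 0.22, edgeR adjusted p = 1). The ligand il11a had a log2 fold change of -1.87 (SE 1.02, edgeR adjusted p = 1), which was 0.03 without library A81 and -2.94 without A78.

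In all, 0 of 34 members passed in this comparison, as did 0% of all genes in edgeR, 0% with the replicate block and 0% in DESeq2. The gene il2rga was the 1 member at an unadjusted p under 0.05, where 1.38% of all genes stood, and the 1 higher without overlap, against 2.14% of all genes. Without il2rga both counts were 0 of 33. With the replicate block il2rga was again the 1 member at an unadjusted p under 0.05 in edgeR. No member was lower without overlap, against 2.32% of all genes. The median log2 fold change was 0.09 over the 34, against -0.00 over all genes. The 95% interval lay within 2-fold for 22 members, which is 64.7% against 76.5% of all genes. Among these were il10rb (-0.36 to 0.29), il6st (-0.10 to 0.62) and il17rc (-0.16 to 0.38).

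**Figure D4:**
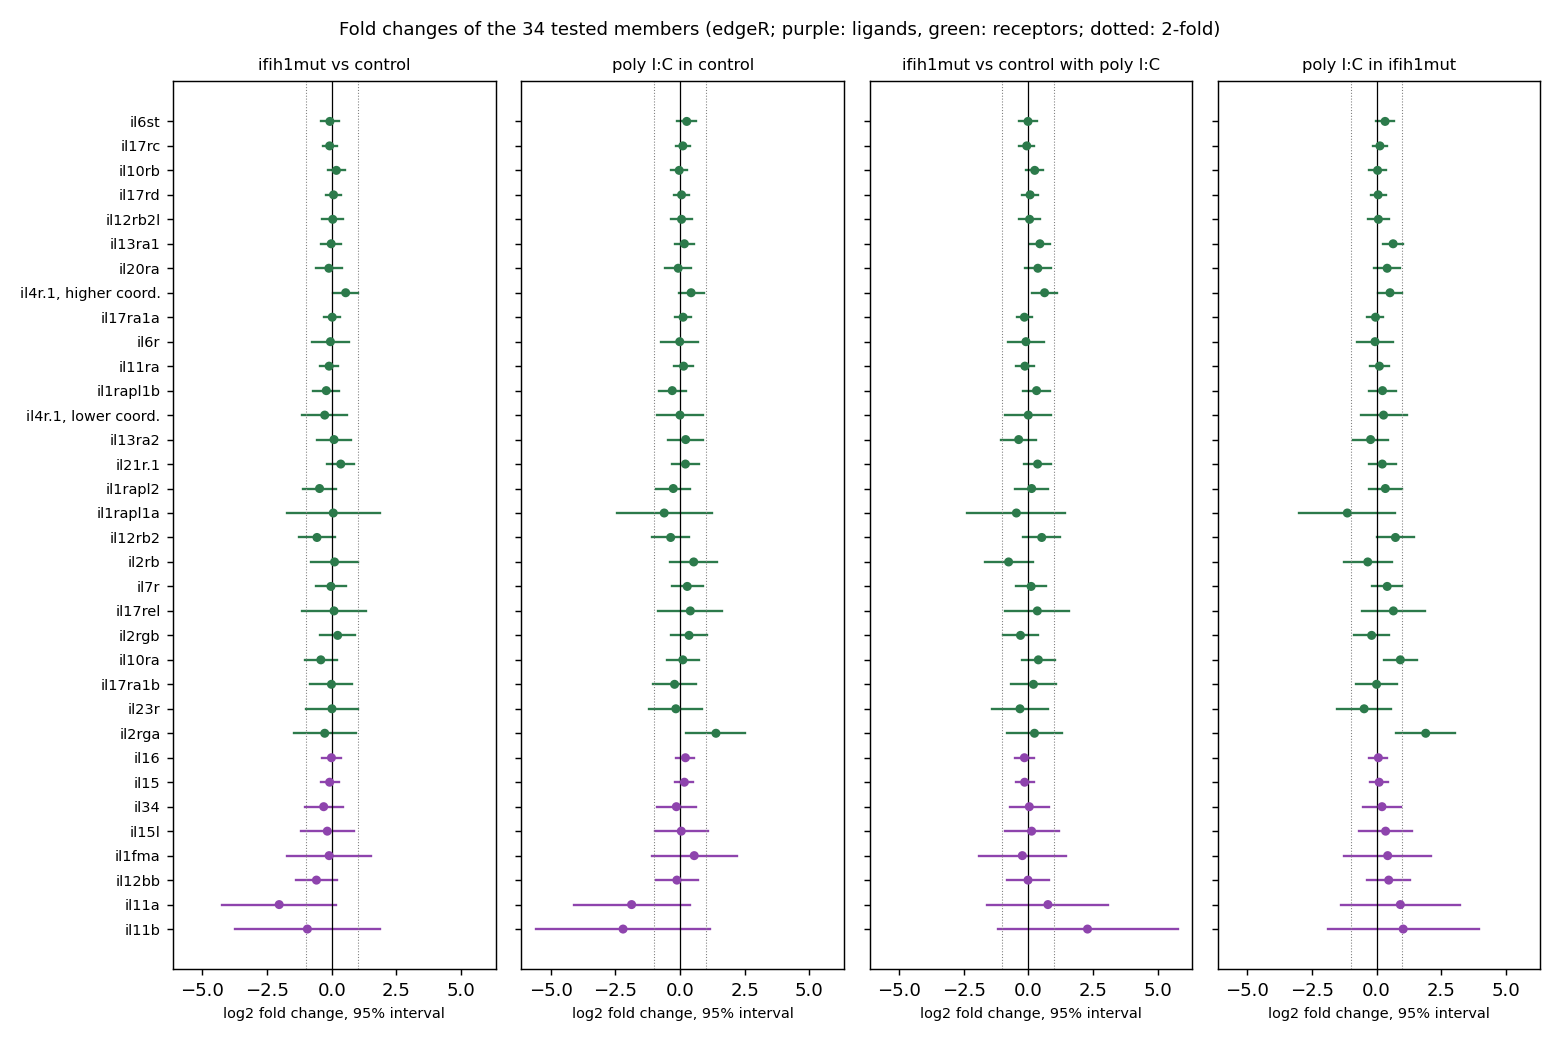
Log2 fold changes (points) with 95% intervals (lines) of the 34 tested members in the 4 comparisons of groups, from edgeR; purple marks ligands, green receptor chains, and dotted lines a 2-fold change. No member was called at an adjusted p under 0.05 in any panel. The fit has no replicate block. The widest intervals belong to il11a (310 counts, 201 of them in control library A81) and il11b (89 counts).

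The third comparison was of ifih1mut with control larvae, both given poly I:C. The IL-13 receptor chain il13ra1, which pairs with the IL-4 receptor alpha chain in mammals, was higher in each ifih1mut pool than in each control pool. Its level was 12.1, 8.85 and 10.4 CPM in control and 12.9, 13.6 and 16.5 CPM in ifih1mut, with a log2 fold change of 0.45 (SE 0.17, 95% interval 0.07 to 0.84, edgeR adjusted p = 1). The upper il4r.1 was at 8.95, 14.3 and 15 CPM in ifih1mut, and its lowest pool fell within the control range. Its log2 fold change was 0.63 (SE 0.22, 95% interval 0.15 to 1.11), with an unadjusted p of 0.0152 and an adjusted p of 0.829 in edgeR. For il2rb the level was 1.33, 0.51 and 2.11 CPM in control and 0.729, 0.616 and 0.986 CPM in ifih1mut, with overlap, and its log2 fold change of -0.76 (SE 0.42, edgeR adjusted p = 1) was -0.24 without library A80 and -1.14 without A79.

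Here too 0 of 34 members passed, against 0.6% of all genes in edgeR, 0.883% with the replicate block and 1.03% in DESeq2. At an unadjusted p under 0.05 in edgeR without the block there were 2 members, 5.88% against 3.74% of all genes. With the block there were 3 (il10rb, il13ra1 and the upper il4r.1), 8.82%, with no share of all genes counted. Without overlap 1 member was higher and 0 were lower, against 4.16% and 3.2% of all genes. The median log2 fold change was 0.06, against -0.00 over all genes, and the 95% interval lay within 2-fold for 20 members, 58.8% against 75.6% of all genes. The ligand il6, not tested, had a mean of 0.0745 ± 0.0447 CPM in these ifih1mut pools against 0.0306 ± 0.0309 CPM in the stimulated controls (SD, n = 3), a difference within the spread between pools.

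The fourth comparison was of poly I:C with no poly I:C in ifih1mut larvae, and it held the most members that leaned one way. The il13ra1 level was 10.3, 9.49 and 7.8 CPM without and 12.9, 13.6 and 16.5 CPM with poly I:C. Its log2 fold change was 0.64 (SE 0.17, 95% interval 0.26 to 1.02), with an unadjusted p of 0.00343 and an adjusted p of 0.29 in edgeR. The adjusted p was 0.119 with the replicate block in edgeR, and DESeq2 called the gene at an adjusted p of 0.0474 with a log2 fold change of 0.65 (SE 0.19). Within sets 1, 2 and 3 the differences of il13ra1 were 0.31, 0.50 and 1.03 on the log2(CPM + 0.5) scale. All 3 sets pointed the same way.

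The il10ra level was 0.575, 0.482 and 0.505 CPM without and 1.09, 0.616 and 1.24 CPM with poly I:C in ifih1mut larvae, with no overlap. Its log2 fold change was 0.92 (SE 0.29, 95% interval 0.29 to 1.56), with an unadjusted p of 0.00854 and an adjusted p of 0.575 in edgeR. In control larvae il10ra was at 0.678, 0.65 and 0.756 CPM without and 0.711, 0.81 and 0.723 CPM with poly I:C, above every unstimulated ifih1mut pool. For il2rga the level was 0.0863, 0.0826 and 0.138 CPM without and 0.26, 0.558 and 0.366 CPM with poly I:C, with a log2 fold change of 1.90 (SE 0.52, edgeR adjusted p = 0.306) under the limit on its counts given above. The il12rb2 level was 0.989, 1.94 and 1.01 CPM with poly I:C, against 0.764 to 0.834 CPM without (log2 fold change 0.73, SE 0.32, edgeR adjusted p = 1), and the log2 fold change was 0.34 without library A73. The upper il4r.1 overlapped between these groups (log2 fold change 0.52, SE 0.22, edgeR adjusted p = 1). For il6st the log2 fold change was 0.33 (SE 0.16, edgeR adjusted p = 1).

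Of the 34 members, 0 passed in edgeR, against 0.69% of all genes, and 0 with the replicate block, against 1.04%. In DESeq2 1 member, il13ra1, passed (2.94% against 1.16% of all genes). At an unadjusted p under 0.05 there were 5 members, all receptor chains and all higher, which is 14.7% against 3.64% of all genes. Without il2rga, whose direction the filter fixed, the count was 4 of 33 (12.1%). These counts are from edgeR without the block. With the block there were 7 members, il2rga among them, all receptor chains and all higher. They added il17rel and il6st and made 20.6%, with no share of all genes counted. Without overlap 7 members were higher (il10ra, il12bb, il12rb2, il13ra1, il17rc, il2rga and il6st), which is 20.6% against 3.55% of all genes, and 0 were lower, against 2.75%. The count of higher members was 6 of 33 (18.2%) without il2rga. The median log2 fold change was 0.22 over the 34 members, against -0.01 over all genes. It was 0.39 over the ligands (8 of 8 positive) and 0.17 over the receptor chains (19 of 26 positive). Among all genes tested, 12319 of 26508 were positive. The smallest unadjusted p of a ligand was 0.237 in edgeR without the block (il12bb). The 95% interval lay within 2-fold for 18 members, which is 52.9% against 76% of all genes. The summed level of the receptor chains was 233.8, 238.3 and 252.8 CPM in ifih1mut and 269.3, 271.2 and 296 CPM in ifih1mut with poly I:C. In control larvae it was 257.5, 227.8 and 243.7 CPM without and 293.5, 221.4 and 279.1 CPM with poly I:C, which overlap. This comparison shares the unstimulated ifih1mut pools with the first, where il10ra and il12rb2 were low in those same pools. All 8 ligands had negative log2 fold changes there, so the sign counts of the ligands in both comparisons are not independent. The stimulated ifih1mut pools are shared with the third comparison.

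The summed level of macrophage markers was also highest in the ifih1mut pools with poly I:C, mainly through mpeg1.2. Summed over the 8 of 9 listed markers that matched a gene, their level was 45.1 ± 7.21 CPM in control, 45.9 ± 9.77 CPM in ifih1mut, 47.3 ± 10.9 CPM in control with poly I:C and 94.9 ± 33.9 CPM in ifih1mut with poly I:C (SD, n = 3 each), and the last group ranged from 69.7 to 133.4 CPM. Among the markers, mpeg1.2 had a mean of 13.4 CPM in ifih1mut without and 50.6 CPM with poly I:C, and marco 3.47 and 11.6 CPM. The receptor gene csf1ra was at 21.6 and 22.6 CPM and ptprc, a marker of all leukocytes, at 3.02 and 4.21 CPM. No marker passed the test over all genes, 4 of 8 had an unadjusted p under 0.05 for poly I:C in ifih1mut (3.64% of all genes did), and none was at 0. Among ifih1mut larvae, neutrophil markers (5 of 6 listed symbols matched) summed to 70.9 ± 18.7 CPM without poly I:C and 115.3 ± 40.8 CPM with it. These pools overlapped (51.3 to 88.6 against 68.2 to 140.4 CPM). Neutrophil sums of unstimulated control larvae ranged from 53.6 to 136.6 CPM (mean 90.8 ± 42.1). With poly I:C the control range was 41.8 to 102.1 CPM (mean 80.2 ± 33.4). Lymphocyte markers (6 of 8 matched) summed to 10.3 ± 0.951 CPM without and 10.4 ± 1.3 CPM with poly I:C in ifih1mut larvae (SD, n = 3). The part of macrophage content in the levels of il13ra1, il10ra and il2rga was not tested.

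Whether poly I:C acted differently in the genotypes was tested as an interaction, ifih1mut minus control. Without the replicate block the smallest p was that of il12rb2. Its log2 difference was 1.09 (SE 0.46, 95% interval 0.08 to 2.10), with an unadjusted p of 0.0364 and an adjusted p of 1 in edgeR. It was 0.70 without library A73, which held the highest il12rb2 level. For il10ra it was 0.81 (SE 0.41) and for il13ra1 0.47 (SE 0.25), both at an edgeR adjusted p of 1. No member passed, against 0.155% of all genes in edgeR, 0.298% with the replicate block and 0.513% in DESeq2. At an unadjusted p under 0.05 the count was 1 member, 2.94% against 2.04% of all genes, and the 95% interval lay within 2-fold for 12 members, 35.3% against 61.9% of all genes. The median over the 34 members was 0.08, against -0.01 over all genes.

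Across all 5 comparisons 0 members were called in edgeR. In the authors' deposited table for ifih1mut against control, 49 members were listed and 0 had an adjusted p under 0.05, as did 5 of 31893 genes (0.0157%). For poly I:C in control larvae the authors' deposited table listed 48 members with 0 under 0.05, beside 7 of 31617 genes (0.0221%). For ifih1mut against control with poly I:C the authors' deposited table listed 47 members with 0 under 0.05, beside 261 of 31293 genes (0.834%). The smallest adjusted p of a member in each of the authors' deposited tables was 1. Unadjusted, these tables held 1, 0 and 2 members under 0.05 in the same order, with no share of all genes counted. The 1 for ifih1mut against control was the upper il4r.1 (unadjusted p = 0.00068 in the authors' test, which the sources used here do not name).

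Of the genes downstream of the receptors, values are given for socs1a, stat2, tyk2 and stat4, and nothing is stated here of the JAK-STAT list as a whole. These genes were named by no rule set beforehand and do not stand for the rest of the list. The inhibitor of JAK signalling socs1a was at 2.31 CPM in control with poly I:C and 8.34 CPM in ifih1mut with poly I:C on average (log2 fold change 1.85, SE 0.40, edgeR adjusted p = 0.0958), and it was called in that comparison with the replicate block (adjusted p = 0.00203, edgeR) and in DESeq2 (adjusted p = 0.000742). For poly I:C in ifih1mut, socs1a (edgeR adjusted p = 0.354) and stat2 (edgeR adjusted p = 0.124) did not pass, and both were called with the replicate block and in DESeq2. Of all genes, 0.883% were called in the third comparison with the block and 1.03% in DESeq2. In the fourth comparison these shares were 1.04% and 1.16%. The kinase gene tyk2 was at 13.6 CPM without and 18 CPM with poly I:C in ifih1mut (log2 fold change 0.40, SE 0.12, edgeR adjusted p = 0.485), and stat4, which acts below IL-12 in mammals, at 7.02 and 10.1 CPM (log2 fold change 0.53, SE 0.16, edgeR adjusted p = 0.55). In the IL-1 and IL-17 signalling list 17 of 19 genes were tested and 0 called in each of the 5 comparisons. Of 15 listed genes of cytokine receptors and their partners with other names, such as lifra, osmr and csf3r, 10 were tested and 0 called. Of all genes, 0% to 0.69% were called in edgeR over the 5 comparisons, so counts of 0 do not set lists this small apart. The median log2 fold changes for poly I:C in ifih1mut were 0.08 and 0.14 in these lists.

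Some members followed the library sets rather than the groups. These members were picked after their values were seen, and no test was made. In set 1 the lower il4r.1 was at 4.49, 4.03, 5.22 and 4.58 CPM, above all 8 other libraries, and il15l at 1.53, 1.21, 1.76 and 1.95 CPM, likewise above the others. In set 3 il6r was at 11.1, 10, 12.3 and 11.9 CPM, against 4.9 to 7.97 CPM in the other sets. The FGF inhibitor il17rd was highest in set 3, at 26.4, 27.9, 28.1 and 30.4 CPM, and lowest in set 2, at 22, 23.3, 21.9 and 22.5 CPM. Of the 34 members, 2 stood apart in this way in set 1 (5.88%, against 10.7% of all genes), 1 in set 2 (2.94%, against 4.67%) and 2 in set 3 (5.88%, against 6.24%). Each of these shares was below that of all genes.

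Several members lie side by side in the deposited coordinates. With 0 listed genes between them were il26 and il22 on chromosome 4 (5.88 kb apart), il23r and il12rb2 on chromosome 6 (13.4 kb), il21r.2 and il21r.1 on chromosome 3 (16.9 kb) and il19l and il10 on chromosome 11 (38.2 kb). The receptor neighbours differed in mean level, il21r.1 at 0.868 and il21r.2 at 0.0414 CPM per kb, and il12rb2 at 0.439 and il23r at 0.0638 CPM per kb. Of the ligand neighbours, il10 was at 0.114 and il19l at 0.0256 CPM per kb, from 44 and 8 counts over the 12 libraries. The genes il22 and il26, with 29 and 15 counts, were not ordered. All 4 were near the limit of detection in single libraries.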

How the data were processed

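RNA-seq counts of 12 libraries (4 groups of 3 pools of whole zebrafish larvae) came from 3 deposited comparison tables. Per the file headers, the authors gave a raw read count per gene and library, and a log2 fold change with a p-value and adjusted p-value for each comparison. The sources used here name no aligner, counter, build, strand setting or test. The 36 columns of other per-library values were not used. The tables were joined by gene identifier, where 187002 counts appeared in several tables and 0 of them disagreed, and 6372 missing values in 1484 genes were set to 0. The deposited log2 fold changes and p-values by the authors were used only for counts of calls.

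Genes were filtered with filterByExpr (minimum count 10, minimum total 15), leaving 26508. After TMM normalisation, edgeR 4.0.16 (R 4.3.3) tested genes by quasi-likelihood F-tests, with a mean for each group over all 12 libraries and 8 residual degrees of freedom. Levels are CPM on TMM-adjusted totals, and levels of different genes are compared as CPM per kb of the deposited gene length. An SE is the log2 fold change divided by the square root of F. The fits were tested on simulated data before use.

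Alternatives were RLE size factors, DESeq2 1.42.0, no filter, a minimum of 1 CPM in 3 libraries, a fit of the compared groups alone, leaving out each library, and a replicate block. The columns carry library numbers, not the replicate numbers of the titles, so the block is the position of the number within its group. Deviations from the group means correlated at r = 0.295 to 0.801 in the 18 pairs of libraries of 1 position and at most 0.174 in the others, over 22701 genes, which are not independent, so the positions were taken to pair the libraries. With the block, edgeR's biological coefficient of variation went from 0.2625 to 0.1514.

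Members and lists were chosen with earlier results of these data known. Values in every library are given for called members, the 3 with the smallest p in each comparison, the 3 ligands and 3 receptors with the highest CPM per kb, and 13 fixed members. Others named with values by library were chosen after their values were seen. Some genes of the JAK-STAT list are not reported here.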

Additional observations from a re-analysis of the deposited data

How the results depend on the processing

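The count of 0 called members kept its value in the 5 comparisons under every alternative run except 1. DESeq2 called 1 member, il13ra1, for poly I:C in ifih1mut. With the replicate block 0 members were called in each comparison, so the block changed no call of a member. Leaving out each library gave 0 called members throughout. Of 260 alternative values of 15 named gene results, 258 kept their direction and their side of the threshold and 1 became a call (il13ra1 in DESeq2, log2 fold change 0.65). The remaining 1 reversed. It was il11a for poly I:C in control, at 0.03 without library A81, with a range of -2.94 to 0.03 over the fits that leave out 1 library, and the cause was not tested. The median log2 fold change of the members for poly I:C in control was -0.01 with no filter, against 0.09. The fit with no filter also holds the 15 members that the filter left untested. Leaving out 1 library gave medians of 0.00 (without A82) to 0.18 (without A81) for it, -0.11 to 0.02 (without A81) for ifih1mut against control, -0.01 (without A79) to 0.15 (without A78) for the same with poly I:C, 0.14 to 0.33 (without A75) for poly I:C in ifih1mut, and 0.03 (without A79) to 0.24 (without A75) for the difference of effects, so in 2 comparisons the sign of the median rests on 1 library.

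The low-count filter left 15 members untested, and 3 counts correspond to 0.0287 to 0.0945 CPM.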

Other observations

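The upper il4r.1 and il21r.1, both with unstimulated ifih1mut pools above the control pools, lie near each other on chromosome 3. Between 40000000 and 50000000 of that chromosome, a window chosen after these values were seen, 14 of 132 tested genes had pools that did not overlap between ifih1mut and control, in either direction, which is 10.6% against 3.46% of all genes. With poly I:C the window held 12 such genes, 9.09% against 7.36% of all genes. The upper il4r.1 and il21r.1, which prompted the window, are counted among the 14 without poly I:C. That choice fixed part of the excess in advance. The genotype of the pools in this region was not tested.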
